A study of Danio rerio with 4 samples.

Results

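The loci described here are single genome positions at which the level of 5-methylcytosine (m5C) in zebrafish brain RNA was listed as higher in condition 1 than in condition 2. They were chosen by that difference, so the levels are given as a description and no test was made on them. The base and strand at each position were not checked here. Of 617 distinct loci in the authors' deposited table of differential loci, 499 met the rule, and they lay in the spans of 72 annotated genes on 20 chromosomes and 1 unplaced scaffold. The other 118 loci, in 21 genes, were higher in condition 2. Neither the headers nor the labels say which condition was the mutant, so no direction by genotype is given for methylation.

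The study compared brain tissue of nop2 mutant zebrafish with that of their nop2 sibling fish by RNA bisulfite sequencing and by Ribo-seq, with 1 library per genotype in each assay. No label used here states the mutant allele, the genotype of the siblings or how many animals each library pooled. Sample titles give an age of 48 dpf and the design text gives 48 hpf, and the labels do not settle which is right. Ribo-seq sequences the RNA pieces that ribosomes shield from nuclease and so counts ribosomes per gene.

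In RNA, m5C is a cytosine with a methyl group on carbon 5 of the ring. It is written by enzymes of the NSUN family, to which Nop2 belongs, and by the tRNA methyltransferase Dnmt2 (trdmt1), and proteins such as Alyref and Ybx1 bind it. The best known sites lie in ribosomal and transfer RNA, and Nop2 itself acts on the RNA of the large ribosomal subunit. Bisulfite converts unmethylated cytosine so that it reads as T, and a cytosine that stays C is counted as methylated. Cytosines protected by RNA structure or left unconverted read the same way as methylated ones, and their part in these levels was not tested.

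The loci had intermediate levels in condition 1 and levels near 0 in condition 2. In the authors' deposited table, levels in condition 1 ran from 0.133 to 0.731, with quartiles of 0.271 and 0.490. Levels in condition 2 had quartiles of 0.00032 and 0.00058 in the authors' deposited table and stayed under 0.01 at 490 of the 499 loci (98.2%). The difference had a standard error between 0.0192 and 0.313 (median 0.0843) in the authors' deposited table. The rule had no members with a difference near 0, in a list that held only loci already selected as differential. The smallest difference inside it was 0.132, at the single locus of tm9sf1, and the nearest loci outside it, in zdhhc18a, had -0.169 in the authors' deposited table. The 118 loci higher in condition 2 had the mirror pattern. Their levels in condition 2 had quartiles of 0.264 and 0.414 in the authors' deposited table, and 93 (78.8%) were under 0.01 in condition 1.

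The 9 loci that kept a level of at least 0.01 in condition 2 fell in 4 genes, named here after their values were seen. The 3 loci of rnf146, a ubiquitin ligase gene, were listed at 0.425 (condition 1) and 0.0619 (condition 2) by the authors' deposited table. The 2 loci of tnksa, which encodes the poly-ADP-ribosylating enzyme tankyrase, had 0.292 and 0.0647 there. In mammals these 2 proteins act together on axin, a brake of Wnt signalling. The 3 loci of si:ch73-215f7.1 had 0.368 and 0.0946, and the single locus listed under IGLON5 had 0.444 and 0.201, both per the authors' deposited table. The symbol IGLON5 was also the only one listed with loci in both directions.

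Loci were unevenly spread over genes. Of the 72 genes, 17 had 1 locus, 9 had 2 or 3, 26 had 4 to 7 and 20 had 8 or more. The 20 genes with most loci held 317 loci (63.5%). Chromosome 12 carried 89 loci in 7 clusters and chromosome 8 carried 46 in 4 clusters. On chromosome 12 the neighbouring genes jmjd1cb and reep3b had loci that lay 53143 bases apart.

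Positions below are on GRCz11, read as the end of each listed interval of 1 base. The files do not state the convention, so positions could be off by 1 base. Among genes of ubiquitin handling, usp22, a deubiquitinase of the SAGA chromatin complex, had 33 loci within 481 bases. Its levels in the authors' deposited table ran from 0.174 to 0.356 (condition 1) and did not exceed 0.00044 (condition 2). The F-box gene fbxo8 (28 loci in 275 bases of chromosome 1) had, per the authors' deposited table, levels of 0.249 to 0.258 against 0.00021. The ubiquitin ligase gene znrf3, whose mammalian protein removes Wnt receptors from the cell surface, had 11 loci at 1 level, 0.332 against 0.00032 in the authors' deposited table (chromosome 5, 16070233 to 16070381).

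Among signalling genes, prkcz encodes an atypical protein kinase C of cell polarity and had 24 loci in 178 bases, at 0.346 to 0.416 per the authors' deposited table. The gene pald1a, for the phosphatase-domain protein paladin, had 19 loci at 0.204 (chromosome 12, 48147938 to 48148129), per the authors' deposited table. The phospholipase C gene plch2a had 17 loci, given as 0.453 by the authors' deposited table (chromosome 8, 47525500 to 47525679). The ciliary neurotrophic factor receptor gene cntfr had 10 loci at 0.271 to 0.375, and the growth factor kinase gene akt1 had 8 loci at 0.336, in the authors' deposited table. All loci of these signalling genes had levels under 0.01 in condition 2.

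Genes of neural wiring and cell contact were also among those with many loci. The gene robo3, for a receptor of Slit guidance cues, had 19 loci at 0.5002 against 0.00067 per the authors' deposited table (chromosome 10, 31405332 to 31405516). The protocadherin gene pcdh7b had 16 loci in 3 clusters, at 0.218 to 0.518 in the authors' deposited table (chromosome 7, 63540833 to 63541350). The gene ctnna2, for the alpha-catenin of neurons, had 8 loci in only 22 bases at 0.274 in the authors' deposited table (chromosome 1, 42932595 to 42932616). The lowest median among the 20 genes was that of loxl3b, for a lysyl oxidase-like enzyme of the matrix, with 10 loci at 0.158 to 0.196 in the authors' deposited table.

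Further genes with 8 or more loci had varied functions. Sugar-chain gene ext1b, for an enzyme that extends heparan sulfate, had 22 loci at 0.189 to 0.246 in the authors' deposited table (chromosome 19, 46487747 to 46488018). The muscle enolase gene eno3 had 8 loci at 0.472 and the mitochondrial carrier gene slc25a21 had 8 at 0.447, per the authors' deposited table. The gene camsap2a, for a protein of microtubule minus ends, had 15 loci at 0.298 in the authors' deposited table (chromosome 22, 22409800 to 22409970). The Jumonji-domain gene jmjd1cb had 19 loci at 0.178 to 0.301 and the scaffold-named gene CABZ01076744.1 had 11 at 0.235 to 0.485, per the authors' deposited table. The gene reep3b, for a membrane protein of the endoplasmic reticulum, had 2 clusters of 8 loci, 1 at 0.731 and 1 at 0.366 in the authors' deposited table. The listed level thus differed between these clusters of 1 gene, which lay within a stretch of 6122 bases. Standard errors of the reep3b loci were 0.103 to 0.112 in the authors' deposited table, and the depth behind the levels is unknown. Both levels also occurred in other genes.

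**Figure D1:**
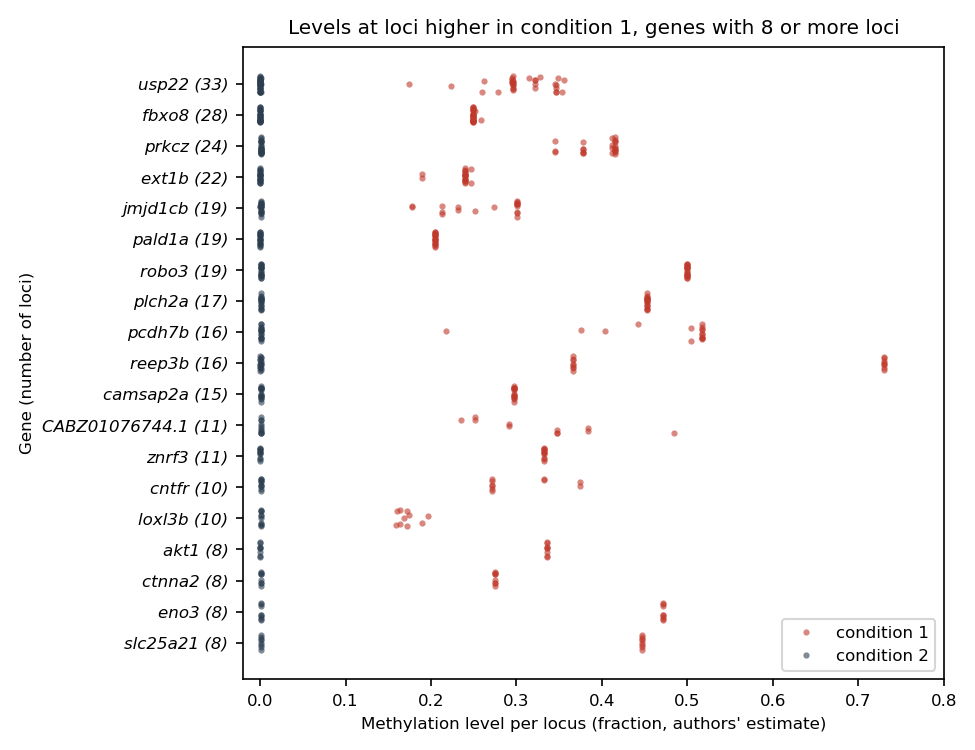
Methylation level of every locus (fraction, horizontal axis) in condition 1 and in condition 2 for 19 of the 20 genes with 8 or more loci, each point 1 locus with vertical jitter only. Levels in condition 2 sit at the left edge in all 19 genes, and in condition 1 many genes show a single level while others spread, such as pcdh7b from 0.218 to 0.518, CABZ01076744.1 from 0.235 to 0.485 and usp22 from 0.174 to 0.356, and reep3b has 2 levels.

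Levels were shared by neighbouring loci. Loci less than 101 bases from the next were joined, which gave 77 clusters, of which 19 were single loci. Of the 58 clusters of 2 or more loci, 45 held only 1 level in condition 1 to 6 decimals. Among loci higher in condition 2, 18 of 19 such clusters held only 1 level in condition 2. Over all 499 loci there were 106 distinct levels, and 7 of these levels occurred in more than 1 gene. The level of 0.731 occurred at 18 loci of 7 genes, namely desma, ek1, slit1a, rnpepl1, reep3b, si:ch211-11n16.2 and CR318624.1, in the authors' deposited table. Of these, desma, ek1, slit1a, rnpepl1 and si:ch211-11n16.2 had 1 locus each, with standard errors of 0.311 to 0.313 in the authors' deposited table. Over all 499 loci the median standard error was 0.0843 and the highest 0.313, in the authors' deposited table. A further level, 0.576, was shared by edil3a, zfr and the scaffold-named genes CABZ01043826.1 and CABZ01079276.1 in the authors' deposited table. The 6 loci of CABZ01043826.1 are listed there a further time under pkd1a, whose span holds that gene, and pkd1a has no other loci. Levels were estimates of the authors that are tied over neighbours, so the loci of a cluster do not count as separate measurements. The origin of levels shared between genes was not tested.

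The clusters were short and dense. The 46 clusters of 4 or more loci held 449 loci (90.0%), were 22 to 481 bases wide (median 116.5) and carried a median of 7.44 loci per 100 bases. Loci higher in condition 2 were alike, with 89.0% in clusters of 4 or more and a median of 7.36 loci per 100 bases. Of the 72 genes, 67 had a single cluster, and jmjd1cb, pcdh7b, reep3b, CABZ01076744.1 and CABZ01086127.1 had more than 1. Regions that the authors called higher in condition 1 covered 425 of the 499 loci (85.2%), in 40 genes. These regions come from the same comparison and libraries as the loci, so the overlap is no separate support for the clusters.

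Adjacent positions were common in some clusters and absent from the others. In 14 clusters, 144 of 156 loci had another listed locus at the very next base. Genes with such clusters included fbxo8, ctnna2, CABZ01043826.1, cntfr, robo3, reep3b, slit3, celsr2, znrf3, edil3a, pcdh7b, plch2a and CABZ01079276.1. In the other 44 clusters, with 324 loci, no adjacent positions were listed. In 7 of the 14 clusters every locus belonged to such a pair. The pairs did not have equal errors. In edil3a the first position of each pair had a standard error of 0.174 and the second 0.120, at 1 common level of 0.576, in the authors' deposited table. In ctnna2 those values were 0.1036 and 0.1035 in the authors' deposited table. Among loci higher in condition 2, 5 clusters had adjacent positions and 14 clusters of 2 or more loci had none. A CG dinucleotide places cytosines of the 2 strands at adjacent positions, and the authors' region table counts cytosines in a column headed nCG. The bases at these positions and the strand of each gene were not analysed here, so the origin of the pairs was not tested.

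The cluster of usp22 had a regular spacing. Of its 33 loci, 22 followed each other at exactly 4 bases (chromosome 12, 1525034 to 1525118). Over this run the level lay between 0.295 and 0.347 in the authors' deposited table, with the higher values at the end of the run with the higher coordinates. No other cluster had an evenly spaced run of more than 4 loci. The sequence under the run was not analysed here.

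**Figure D2:**
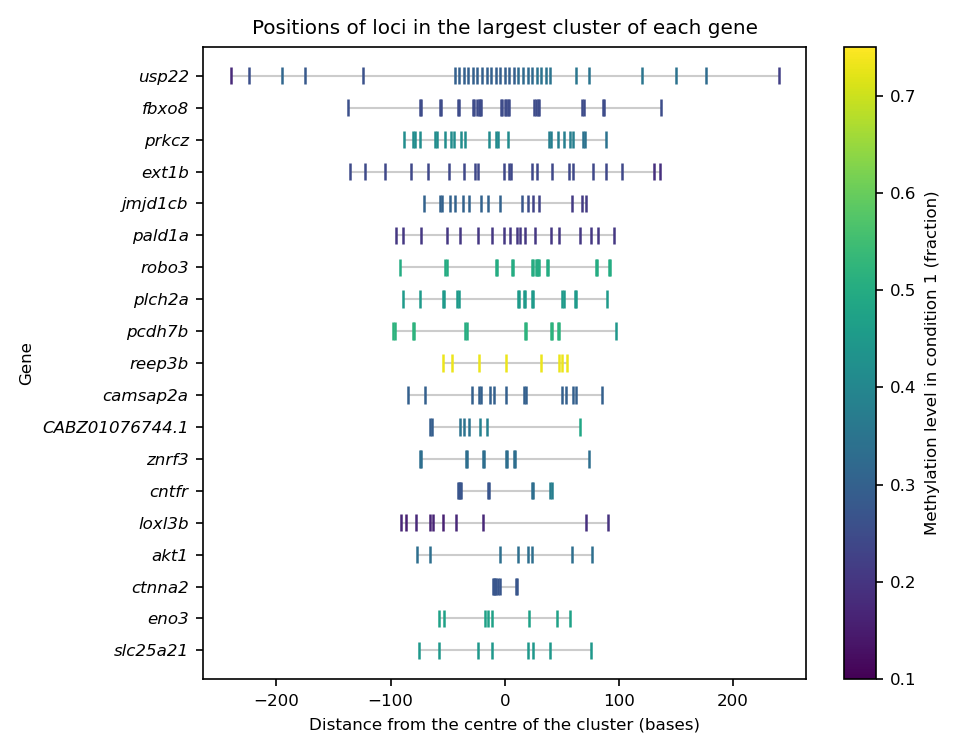
Positions of loci, in bases from the centre of the largest cluster of each of 19 of the 20 genes with 8 or more loci (for reep3b, 1 of its 2 clusters of 8), with colour giving the level in condition 1 (fraction). The row of usp22 shows the run of 22 loci at a spacing of 4 bases, and ctnna2 shows 8 loci within 22 bases.

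Clusters lay in all parts of the gene span. Gene spans ran from 7174 bases (CABZ01079276.1) to 814905 bases (ctnna2), with a median of 62470 bases, close to the 62338 bases of the genes with condition 2 loci. Relative place was measured from 0 at the lower coordinate to 1 at the higher, since the strand of genes was not used here. With 1 value per gene, 14 genes had their loci in the lowest of 3 equal parts of the span, 34 in the middle part and 24 in the highest part, with a median of 0.52. The outer 10% of the span at either end held 13 of the 72 genes and 82 of the 499 loci. Counted by locus the median was 0.58, and 273 of 499 loci lay in the middle part. The locus nearest to either end was a median of 13625 bases away from it, and 3 genes had a locus within 1000 bases of an end. These were arhgap31 (98 bases), rnf146 (540 bases) and usp22 (733 bases). The lowest relative place was that of csrp1a (0.036) and the highest that of arhgap31 (0.998). For the 21 genes with condition 2 loci the median place was 0.54, with 7, 6 and 8 genes in the 3 parts. No test of this difference was made, since genes of 1 pair of libraries are not replicates. Whether loci lie in exons, introns or untranslated regions was not analysed here.

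**Figure D3:**
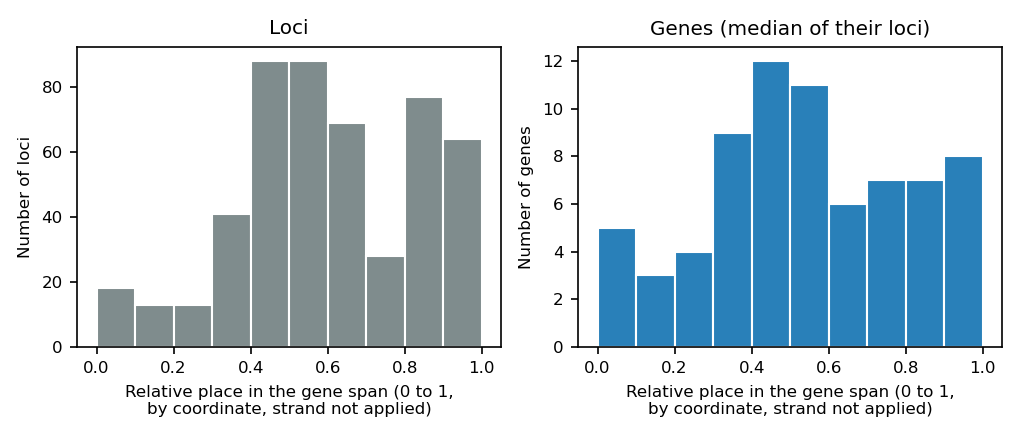
Number of loci (left) and of genes by the median of their loci (right) along the gene span, in 10 equal bins from the lower to the higher coordinate. The lowest of 3 equal parts of the span holds the fewest, with 53 loci and 14 genes.

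Footprints on these genes were read from 2 Ribo-seq libraries, with totals of 20696345 (sibling) and 18884879 (mutant) counts over all listed genes. The gene nop2 itself had 657 sibling and 41 mutant footprints, and no locus lay in it. In bulk tissue, fewer cells of a type and less RNA per cell cannot be told apart, and without total RNA counts a footprint ratio also holds transcript abundance. Levels are given as CPM, the reads counted on a gene per 1000000 reads counted on all listed genes of the library. Markers of brain neurons were present in both libraries, with sums over 10 markers of 4107 (sibling) and 3390 CPM (mutant). Of the 10 neuron markers 7 were lower in the mutant library, against 55.1% of all genes with a mean of 1 CPM or more. Of 5 radial glia markers 3 were higher and 2 lower, and their sums of 1356 and 868 CPM followed fabp7a, which had 800.3 and 252.1 CPM. Markers of eye and muscle were also present and lower in the mutant library, with summed levels of 3171 and 1165 CPM over 6 lens and retina markers and of 38167 and 13329 CPM over 5 muscle markers. Summed levels were 9691 and 14804 CPM over 4 epidermis markers, 7223 and 10034 CPM over 2 yolk markers and 1527 and 2467 CPM over 2 blood markers. The epidermis sums followed krt4 (6520 and 11426 CPM), while krt5 was lower in the mutant library (2278 and 2037 CPM). The yolk sums were almost all apoa1b (7223 and 10020 CPM), with 0.773 and 14.4 CPM for vtg1. None of these markers carried a locus. Genes with loci were few (72, beside 25522 genes listed for Ribo-seq), so nop2 or a short marker list would seldom hold one. The part of tissue makeup in the ratios below was not tested.

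Of the 72 genes, 64 were found in the footprint table and 60 reached a mean of 1 CPM. Their footprints ranged from 2.43 CPM (rnpepl1) to 523 CPM (eno3), with a median of 20.2 CPM against 12.4 CPM for the 18127 genes that passed this minimum. Per length, the median was 10.0 TPM for the 60 genes and 8.19 TPM for all measured genes. Their messages were long as seen from the ratio of count to TPM, which follows the length used by the authors. Scaled to the median gene, the median was 1.496 and 22 of 58 genes (37.9%) exceeded 2, as did 16.8% of all measured genes with a value. The number of loci of a gene and its footprint level were unrelated by rank over the 60 genes (Spearman's rho -0.05). Depth differed widely between genes, with 65 sibling and 44 mutant reads on fbxo8 (28 loci) and 6057 and 4877 on zfr (4 loci).

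Loci were also listed in genes with almost no footprints. The gene si:ch73-352p18.4 had 7 loci at 0.350 in the authors' deposited table and 2 sibling and 4 mutant reads. The gene si:ch73-215f7.1, which had no deposited description, had 9 and 24 reads. The tripartite motif gene trim35-25 had no read in either library. The 2 genes annotated as IGLON5 had 0 and 3 reads in sum, and their deposited descriptions name other immunoglobulin-type proteins. A further 8 genes with loci, jmjd1cb and 7 scaffold-named or clone-named genes, were not matched to the footprint table.

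Footprint ratios of the 60 genes lay on the lower side of all genes, by a small amount. Ratios are log2 of mutant over sibling CPM with 0.5 counts added, and intervals on single genes cover counting error only. Intervals were scaled by library totals, so those that end near 0 depend on that scaling. The median was -0.17 against -0.06 for all measured genes, with quartiles of -0.48 and 0.09 against -0.37 and 0.27. Of the 60 genes 42 were lower (70%, against 55.1% of all measured genes). The counting interval lay below 0 for 31 genes (51.7%, against 31.9% of all) and above 0 for 11 (18.3%, against 25.2%). A difference of at least 2-fold was seen in 4 genes on the lower side (6.67%, against 5.7%) and in 1 on the higher side (1.67%, against 4.72%), shares near or below the background. Depth and length also differed between the 60 genes and all measured genes. Of the 60 genes 78.3% had 10 CPM or more, against 55.5% of all measured genes. At 10 CPM or more the median ratio was -0.15 for 47 genes with loci and -0.04 for all genes. With all measured genes split by relative length into 3 equal groups, the longest had a median ratio of -0.11, beside -0.19 for the 32 genes with loci in it. In the middle group the medians were -0.03 for all genes and -0.16 for 16 with loci. In the shortest group they were -0.0034 and -0.06, over 10 genes with loci. The parts of depth and length in the difference were not tested.

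**Figure D4:**
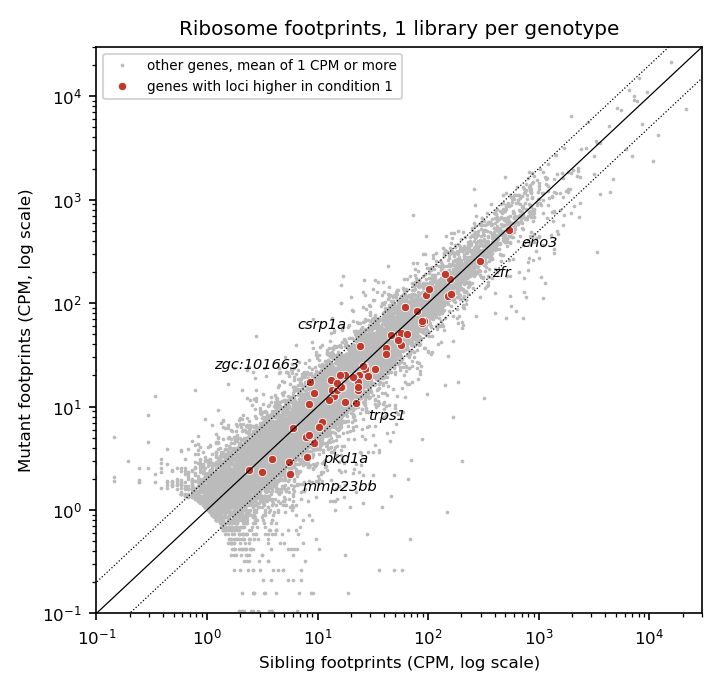
Footprints per gene in the sibling and mutant libraries (CPM, both axes on a log scale), with genes that carry loci higher in condition 1 in red and the other genes with a mean of 1 CPM or more, and reads in both libraries, in grey. The solid line marks equal values and the dotted lines 2-fold, and of the 60 red genes 4 lie at or past 2-fold lower and 1 past 2-fold higher.

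The genes were sorted by known function into 7 classes after the list was seen, so counts by class are a description. Axon guidance genes had 5 members, all with 10 CPM or more. Of these 1 was lower (against 55.1% of all measured genes) and 3 had an interval above 0 (against 25.2%). The secreted Slit ligand gene slit1a had 142.8 sibling and 192.7 mutant CPM (log2 ratio 0.43, counting interval 0.36 to 0.50). Its relative slit3 had 102.7 and 136.1 CPM (0.41, 0.32 to 0.49), and the Slit receptor gene robo3 had 96.2 and 119.6 CPM (0.31, 0.23 to 0.40). These 3 genes of 1 ligand and receptor pathway were higher in the mutant library. The Eph-family receptor gene ek1 differed little (46.0 and 48.9 CPM, 0.09, -0.043 to 0.22). Its lower end was close to 0, so the count of 3 depends on scaling by library totals. The semaphorin receptor gene plxna3 was lower, at 160.9 and 123.0 CPM (-0.39, -0.46 to -0.31).

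Genes of adhesion, polarity and matrix were lower in 9 of 10 cases, 7 of them with a counting interval below 0, and their median was -0.40. Of all measured genes 55.1% were lower and 31.9% had an interval below 0. Intervals narrow with depth, and 8 of these 10 genes had 10 CPM or more. The upper end for celsr2 was close to 0, at -0.032, so the count of 7 depends on scaling by library totals. The protocadherin gene pcdh7b had 57.0 sibling and 39.8 mutant CPM (-0.52, -0.65 to -0.39). The cadherin gene cdh11 had 91.7 and 66.7 CPM (-0.46) and ctnna2 had 151 and 117 CPM (-0.37). The largest differences were in low genes, mmp23bb for a matrix metallopeptidase (117 and 42 reads, -1.33, -1.89 to -0.83) and lrfn5a for a synaptic adhesion molecule (115 and 55 reads, -0.93). The exception, the polarity scaffold gene pard3bb, had 13.4 and 14.5 CPM (0.11, interval including 0).

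Of 10 signalling genes 9 were lower (8 with TMM scaling), 4 of them with an interval below 0, and 9 had 10 CPM or more. Of all measured genes 55.1% were lower (50.3% with TMM scaling) and 31.9% had an interval below 0. The polycystin gene pkd1a, whose 6 loci are all listed under CABZ01043826.1 too, had 165 and 62 reads (-1.27, -1.73 to -0.85), plch2a had 23.2 and 15.5 CPM (-0.59) and pak2b, for a kinase activated by Cdc42 and Rac, had 88.4 and 67.7 CPM (-0.38). The activin receptor gene acvr2ba went the other way, with 61.5 and 92.7 CPM (0.59, 0.49 to 0.70). The gene prkcz had 14.9 and 14.4 CPM, a ratio of -0.05 that became 0.0028 with TMM scaling.

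Of 9 measured genes of transcription, chromatin and RNA binding 8 were lower, all 8 with an interval below 0, against 31.9% of all measured genes. The upper ends for VDR, SBNO2 and hdac4 were close to 0, at -0.027, -0.034 and -0.026. TMM scaling moved the median of all measured genes from -0.06 to -0.0028, more than these distances, so the count of 8 holds for library totals only. Of these 9 genes 7 had 10 CPM or more. The zinc finger repressor gene trps1 had 22.2 and 10.9 CPM (-1.03, -1.28 to -0.79), and ebf1b, for a transcription factor, had 193 and 84 reads (-1.06). The chromatin gene bahcc1a had 32.9 and 22.9 CPM (-0.52), and zfr, for an RNA-binding protein, had 293 and 258 CPM (-0.18, -0.24 to -0.13). The Ets repressor gene erfl3 had 17.5 and 20.02 CPM (0.19, interval including 0). The value used for VDR was the sum of 2 genes of that symbol (-0.22), and that for SBNO2 also a sum of 2 (-0.18).

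Of 8 measured genes of ubiquitin handling and peptide cleavage 5 were lower, 3 of them with an interval below 0, and 3 were higher, none with an interval above 0. Of all measured genes 55.1% were lower and 31.9% had an interval below 0, shares near those of this class. An interval above 0 was seen in 25.2% of all measured genes. The upper end for rnf146 was -0.031 and the lower end for dpp9 -0.00074. These interval counts thus depend on scaling by library totals. The gene usp22, with most loci, had 21.1 and 19.5 CPM (-0.12, -0.32 to 0.09), so that no difference was detectable at this depth. The deubiquitinase gene usp19 had 64.2 and 49.9 CPM (-0.36), rnf146 had 57.1 and 51.3 CPM (-0.15) and znrf3 had 15.1 and 17.0 CPM (0.17, interval including 0).

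Among genes of the cytoskeleton and membrane traffic, 4 of 7 were lower, near the 55.1% of all measured genes. The LIM-domain gene csrp1a had 24.2 and 38.6 CPM (0.68, 0.51 to 0.84) and reep3b had 15.9 and 20.1 CPM (0.34). The endocytic adaptor gene pacsin1a had 88.9 and 64.2 CPM (-0.47), ankrd13c had 23.0 and 14.6 CPM (-0.66), and the desmin gene desma had 157 and 173 CPM (0.14). Of 6 metabolic genes 4 were lower and 2 higher, beside 55.1% lower of all measured genes. Lower were, among others, scdb, for a fatty acid desaturase (28.6 and 19.6 CPM, -0.54), ext1b (10.9 and 7.04 CPM, -0.63) and eno3 (534 and 511 CPM, -0.06). The gene slc25a21 had 6.04 and 6.20 CPM (0.04, interval including 0). Of these muscle genes, desma thus lay slightly above 0 (interval 0.07 to 0.21) and eno3 slightly below it (-0.10 to -0.02). The 5 fixed muscle markers were all at least 2-fold lower, against 5.7% of all measured genes. Whether this contrast has to do with the loci was not tested.

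Among genes without a named function, zgc:101663 had 8.55 and 17.3 CPM (1.02, 0.75 to 1.29), the highest ratio of the 60. The gene si:dkey-172j4.3 had 13.2 and 18.3 CPM (0.46). A gene described as a protein of the KIAA1549 family had 17.5 and 11.1 CPM (-0.66).

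**Figure D5:**
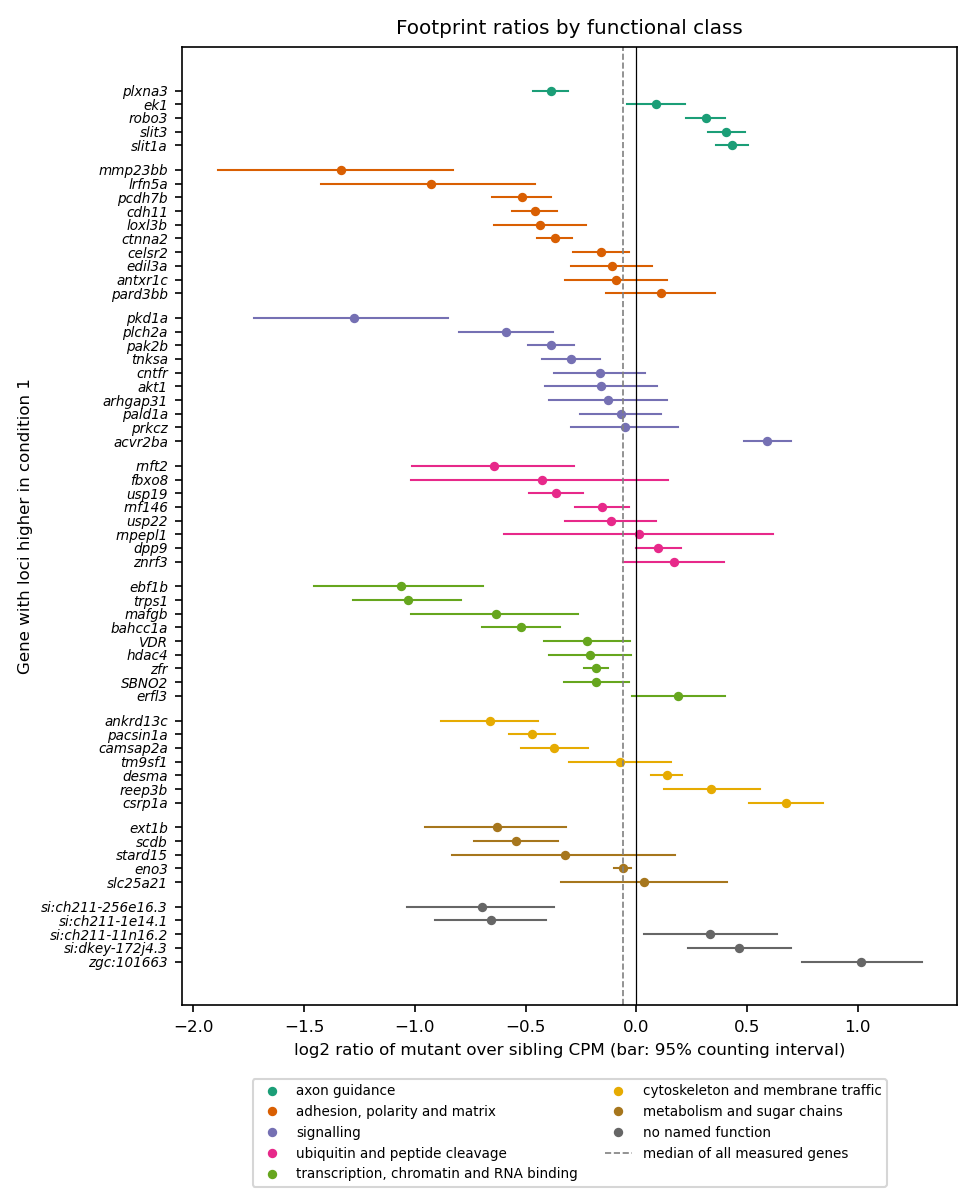
Log2 ratio of mutant over sibling CPM for 59 of the 60 measured genes by functional class, with 95% counting intervals as bars, a line at 0 and a dashed line at the median of all measured genes (-0.06). In the class of adhesion, polarity and matrix 9 of 10 genes lie left of 0, and in axon guidance 4 of 5 lie right of it. Of all measured genes 55.1% had a ratio below 0.

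In the deposited Gene Ontology terms, 15 of 39 carriers with a function term were listed for metal ion binding (38.5%), as were 17.7% of all measured genes with such a term. Plasma membrane was listed for 9 of 32 carriers (28.1%, against 16.6%) and homophilic cell adhesion via plasma membrane adhesion molecules for 3 of 37 (8.11%, against 0.702%). Some other terms also lay above the share of all genes. Among them were lipid metabolic process (3 of 37, 8.11%, against 1.21%) and calcium ion binding (5 of 39, 12.8%, against 3.99%). DNA-binding transcription factor activity (4 of 39, 10.3%, against 3.05%) was another. Its RNA polymerase II-specific form lay near the share of all genes (3 of 39, 7.69%, against 7.24%). Further terms lay below or near the share of all genes. Cytoplasm was listed for 7 of 32 carriers (21.9%, against 26.4%) and DNA binding for 3 of 39 (7.69%, against 10.9%). Signal transduction was listed for 2 of 37 (5.41%, against 4.16%). The terms named here were picked after their values were seen, and some rest on few genes. No enrichment test was made.

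A list of 25 genes held RNA m5C writers, binders and oxidising enzymes and the nucleolar genes ncl and fbl, and none of the 25 carried a locus. With 72 genes carrying loci, beside 25522 genes listed for Ribo-seq, a list of this size would seldom hold one. Of the 25 genes 21 were found and measured, 12 higher and 9 lower (55.1% of all measured genes were lower). Only nop2 differed by 2-fold or more (-3.85, against 5.7% of all measured genes at least 2-fold lower). The writer gene nsun2 had 33.3 and 46.1 CPM (0.47), alyref had 272 and 361 CPM (0.41) and ybx1 had 355 and 312 CPM (-0.18).

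Of genes with condition 2 loci 16 were measured, and their median footprint ratio was -0.05, with 10 lower and 6 higher. Of all measured genes 55.1% were lower and the median was -0.06. The difference from the genes with condition 1 loci was not tested.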

How the data were processed

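RNA bisulfite sequencing and Ribo-seq each had 1 sibling and 1 mutant library of brain tissue, grouped by the genotype in the labels. Per the submitters' processing notes, the tools were methylKit, HISAT2, Trimmomatic 0.38, STAR, Bowtie2, fastp and SAMtools and the build GRCz11, with no roles or order given. The deposited locus table gave, per the file headers, a methylation level per condition, estimated by the authors on the scale of a fraction and tied over neighbouring loci, their difference and standard error as a score and an unadjusted p-value, for loci already selected. Its rows have 16 cells under a header of 17, so columns after the p-value were shifted and gene columns were read from their values. The deposited region table gave whole-number counts of cytosines. Coverage was not used here, so the depth behind a level is unknown. The deposited footprint table gave the authors' expected counts, rounded here, of which 25.7% of genes had one that was not whole. It also gave the authors' TPM, log2 fold change and adjusted p-value, and of these only TPM was used. A further 4 per-library columns were not used.

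Members and lists were chosen with earlier results of these data known. Positions were read as interval ends counted from 1, a convention that no header states. Loci at most 100 bases apart were joined. Genes were matched by exact symbol, then by the ID paired with it in a gene name table (61 to 1 ID, 3 to several IDs, whose counts were summed). 1 read was worth 0.0483 CPM (sibling) and 0.0530 CPM (mutant). Counting intervals are exact Clopper-Pearson intervals at 95% and cover counting error only, since PCR copies of a molecule cannot be told from separate molecules. With 1 library per genotype no test was made and no p-value is given. Named genes were those with 8 or more loci, the 8 highest and 8 lowest ratios at 10 CPM or more, the 5 with most footprints, those under 1 CPM, those with the smallest errors or largest differences, and those in both directions. Other names were chosen after their values were seen. Ratio and interval code was tested on simulated data. Alternatives used TMM (edgeR 4.0.16) and DESeq2 1.42.0 size factors, under R 4.3.3. Other values came from Python 3.11.15, numpy, pandas and scipy. Results of 1 gene are not reported here and not drawn by name, although counts and medians over genes include it.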

Additional observations from a re-analysis of the deposited data

How the results depend on the processing

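Of 28 alternatives computed, 21 were counted as leaving the value the same, by limits that differed between results, and none turned a direction. A gap of 50 bases gave 101 clusters and a gap of 500 bases gave 73, in place of 77, and both were counted as the same. A minimum difference of 0.3 left 313 loci of 499. The median relative place, 0.58 by locus, was 0.52 with 1 value per gene, 0.53 with 1 per cluster and 0.55 without the 5 genes with most loci. Genes at least 2-fold lower numbered 1 in place of 4 at a mean of 10 CPM. Genes at least 2-fold higher numbered 3 in place of 1 with no minimum but 1 read, and 0 with the authors' TPM. The median footprint ratio of -0.17 ran from -0.24 with the authors' TPM to -0.12 with TMM scaling, while all measured genes moved from -0.06 to -0.11 and -0.0028. The signs of prkcz, rnpepl1 and slc25a21 turned under at least 1 scaling. No paired analysis was possible because each group had 1 library. The base at each locus and the 5′ to 3′ orientation were not run, as no genome or strand was used here.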
